A study of Corbicula fluminea with 24 samples.

Results

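The comparison set clams caged below a wastewater treatment plant (WWTP) against clams caged below an urban runoff outlet. It used the 8 WWTP libraries and the 8 urban runoff libraries, which are 16 of the 24 libraries of the series, and the labels' location field placed each of them. All libraries were made from the digestive gland of Corbicula fluminea, the Asian clam. The remaining 8 libraries came from a reference site. They were part of the fit that gave the edgeR p-values, and their levels are given beside some of the results. Cages stood at their sites over 1 winter, from December to March, each library came from 1 individual, and the 3 sites shared tissue, kit and season. The labels name 1 location per group and no second cage, so a site and its cage cannot be told apart, and p-values measure the spread between clams. The age, sex and size of the clams and the water chemistry are not used here.

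The Asian clam is a freshwater bivalve that filters large volumes of water and is used as a sentinel of water quality. Its digestive gland takes up food particles, secretes hydrolases, stores lipid and handles foreign compounds. Cells that make much secreted or membrane protein rely on the translocon of the endoplasmic reticulum, on sugar transfer to the new chains and on small GTPases that form transport vesicles. Ribosomes are put together in the nucleolus, and their number sets how much protein a cell can make. Treated sewage carries drug residues, nutrients and detergents, while urban runoff carries metals, hydrocarbons and tyre particles.

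The deposited table gave read counts for 58291 assembled contigs. Of these, 1603 bore a symbol, 19389 a locus name and 37299 only a contig number. Symbols are those of the table, which pairs them with no description, source species or position, so a role stated below is that of the gene so named in other animals. Several contigs can share a name, told apart by numbered endings as in Cap1.1.2 and Cap1.2.2, and reads may have been split between them. Levels are in CPM, which are counts scaled to library sizes with TMM factors. They are not corrected for contig length, so they serve to compare sites for a contig and not contigs with each other. In bulk tissue, fewer cells of a type and less RNA per cell cannot be told apart.

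Total counts were 60.4 M ± 12.7 (SD, n = 8) in WWTP and 62.9 M ± 17.5 (SD, n = 8) in runoff libraries, with a range of 40.4 M to 97.7 M. The totals did not differ beyond the spread between clams (two-sided exact permutation p = 0.749, the smallest possible being 0.000155). Between 99.0% and 99.8% of contigs had counts in each of the 16 libraries. Of the 16 libraries, 4 stood apart with little message of GUN, an endoglucanase of cellulose digestion. These were WWTP individual 41 (7.72 CPM) and runoff individuals 53 (6.58 CPM), 56 (2.74 CPM) and 62 (33.8 CPM), while the other libraries held 144.8 to 1077 CPM. Reference individuals 20 and 21 were also under 50 CPM. WWTP individual 33 stood apart in another way, with 14950 CPM summed over 18 muscle contigs against 819 to 4623 CPM in the other WWTP clams and 1162 to 5735 CPM in runoff clams. No contig was found at only 1 of the sites, with 0 counts in all 8 libraries there and counts in at least 4 of 8 at the other.

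Most of the variation among the 16 libraries did not follow site. The first principal component held 59.9% of the variance. The 4 libraries low in GUN had the highest positions on it, at 156.3 to 262.7, and the other 12 lay between -149.9 and 64.4. Mean positions on it did not differ beyond the spread (WWTP minus runoff -58.1; two-sided exact permutation p = 0.432, adjusted over 3 components 0.577), nor on the second component (10.4% of variance, exact permutation p = 0.577). The third component held 5.62% of the variance and did separate the sites. Its mean position was 28.2 ± 26.6 (SD, n = 8) for WWTP and -28.2 ± 39.9 (SD, n = 8) for runoff clams, with an exact permutation p of 0.000622 and an adjusted p of 0.00187.

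On the third component 7 of 8 WWTP libraries were positive and 7 of 8 runoff libraries negative. The exceptions were WWTP individual 33 at -6.1 and runoff individual 63 at 3.6. Runoff individual 49 was far below the rest at -120.7. Without it the difference between sites was 43.2 (exact permutation p = 0.00124, adjusted 0.00373), and with any 1 of the 16 left out the adjusted exact p was between 0.000932 and 0.00373. These values, and those within lanes, use positions on components computed once from all 16 libraries, so the library left out still shaped the axis. Within sequencing lane 3 the exact permutation p was 0.0571, and within lane 4 it was 0.0286, the smallest that 4 against 4 libraries allow. Adjusted over the 3 components these were 0.171 and 0.0857.

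**Figure D1:**
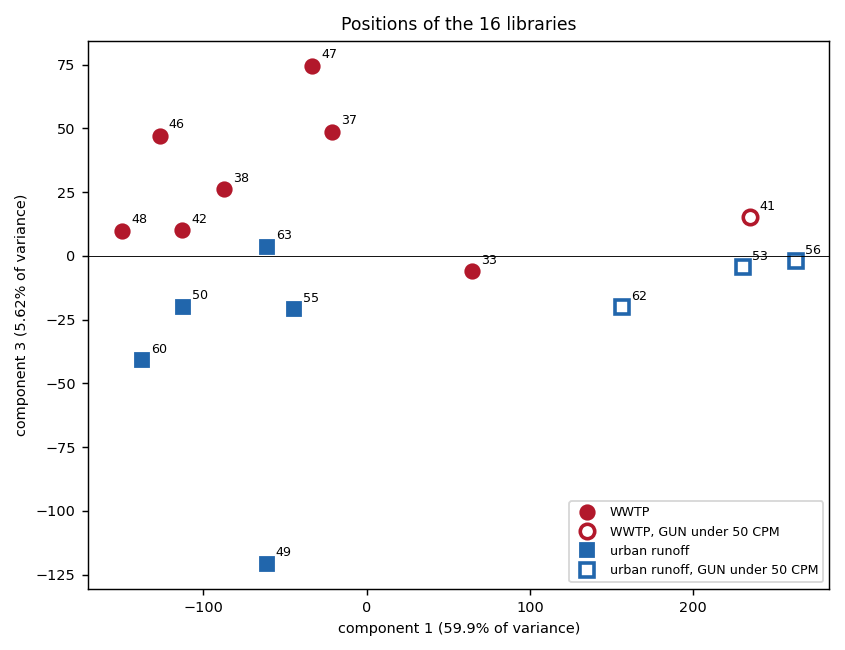
Positions of the 8 WWTP (circles) and 8 urban runoff (squares) libraries on the first and the third principal component of log2 CPM, in log2 units, with the individual number beside each point. Open symbols are the 4 libraries with GUN under 50 CPM, which lie at 156.3 to 262.7 on the first component, while on the third component 7 of 8 WWTP libraries are above 0 and 7 of 8 runoff libraries below it.

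At an adjusted p under 0.05, 609 of the 57593 contigs tested differed between the sites (quasi-likelihood test of edgeR, Benjamini-Hochberg adjusted), which is 1.06%. Of these, 443 (0.769% of contigs) were higher and 166 (0.288%) lower in WWTP clams. Most differences were small. The median log2 fold change was 0.59 among the higher and -0.64 among the lower contigs, and 56 went beyond 2-fold. At an unadjusted p under 0.05 there were 7752 of the 57593 contigs and 212 of the 1588 symbols, which is the background for the unadjusted counts of the lists below. In 128 of the 609 the 8 values of one site lay wholly above those of the other, and over all contigs tested 178 (0.309%) were so separated. No contig passed a test against a change beyond 2-fold (edgeR glmTreat, 170 at an unadjusted p under 0.05). These calls come from a fit of all 24 libraries. With the 16 libraries fitted alone, without the reference clams, 115 contigs and 4 symbols passed (edgeR).

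The higher and the lower contigs were of different kinds. Among the 443 higher contigs 26 had a symbol, 320 a locus name and 97 a number alone, with a median level of 14.9 CPM. Among the 166 lower contigs 4 had a symbol, 21 a locus name and 141 a number alone, with a median level of 4.29 CPM. Of the 1588 symbols tested, 30 (1.89%) were called. The symbols had a median log2 fold change of 0.10 with 62.15% positive. As the lists below hold symbols only, these values are their background. Contigs at high levels leaned to the WWTP side as a class. Those over 100 CPM, 1274 in number, had a median log2 fold change of 0.32 with 80.9% positive, against -0.01 with 49.0% positive over all contigs tested, and they held 57.2% ± 3.52 (SD, n = 8) of the counts in WWTP and 53.7% ± 3.27 (SD, n = 8) in runoff libraries. The ranges of that share overlapped, at 50.6 to 62.1% and 48.7 to 57.7%.

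The split between higher and lower depended on the scaling. With library totals in place of TMM factors 541 contigs were called, of which 37 were higher and 504 lower, 181 were among the 609, and the median of all contigs moved from -0.01 to -0.20. All 30 symbols kept their sign under that scaling and 7 of them kept their call. Relative to the shifted median the 26 higher symbols stood at 0.39 or more, and no symbol moved by more than 0.08. A change of scaling shifts all contigs by nearly the same amount, so these relative values could hardly have changed. Directions below are therefore relative to the bulk of contigs. Upper-quartile scaling called 253 higher and 170 lower contigs.

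**Figure D2:**
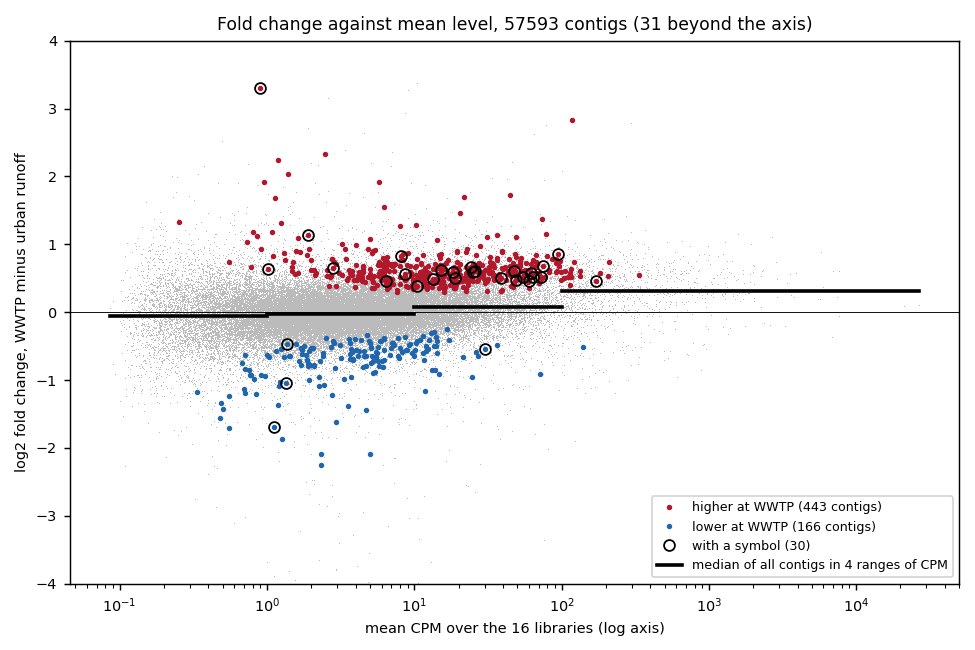
Log2 fold change of WWTP minus urban runoff for each of 57593 contigs against its mean level over the 16 libraries, in CPM on a log axis; 31 contigs lie beyond the vertical axis. Red and blue points are the 443 contigs higher and 166 lower in WWTP clams, rings mark the 30 with a symbol, and black bars give medians of all contigs, which go from -0.06 under 1 CPM to 0.32 over 100 CPM.

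Of 12 contigs of the secretory pathway and glycosylation list 2 were higher and 0 lower, sec61g and OST4, and the median of the list was 0.00. sec61g, the small gamma subunit of the channel through which new proteins enter the endoplasmic reticulum, had a lowest, median and highest level of 71.1, 124 and 165.5 CPM in WWTP clams and 51.4, 64.5 and 93.4 CPM in runoff clams. All WWTP clams but individual 41 were above the highest runoff clam. The means were 122 ± 29.5 (SD, n = 8) and 67.7 ± 13.8 CPM (SD, n = 8), a log2 fold change of 0.85 (SE 0.17; adjusted p by edgeR = 0.0217), and the reference mean was 72.2 ± 18.0 CPM (SD, n = 8).

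OST4, a small subunit of the oligosaccharyltransferase that attaches sugar chains to proteins in the endoplasmic reticulum, ranged from 53.6 to 99.1 CPM (median 75.0) in WWTP and from 43.0 to 56.6 CPM (median 50.3) in runoff clams. Only 1 WWTP clam lay within the runoff range. The fold change on the log2 scale was 0.58 (standard error 0.11, edgeR adjusted p = 0.0205), and its reference mean of 51.2 CPM was close to the runoff mean of 49.6 CPM. The other members of the list did not pass, and SSR4, a subunit of the translocon-associated complex, stood at -0.08, EMC6 of the membrane insertion complex at 0.03 and the 4 furin contigs at -0.33 to -0.03.

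Of 26 small GTPase contigs 2 were higher and 0 lower, ARF4 and ARF1.4.4, and the list's median was 0.15. ARF4, which recruits coat proteins to Golgi and post-Golgi membranes, ranged from 65.1 to 94.6 CPM (median 87.8) in WWTP and from 50.1 to 72.7 CPM (median 56.9) in runoff clams (log2 fold change 0.52 with standard error 0.10, edgeR adjusted p = 0.0206). ARF1.4.4, named for the GTPase that recruits the COPI coat, ranged from 37.9 to 78.0 CPM (median 57.5) and from 28.3 to 43.0 CPM (median 37.6). The log2 difference was 0.61 (standard error 0.12, edgeR adjusted p = 0.0217). In each of these GTPases 7 of 8 WWTP clams were above all runoff clams.

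Other contigs named ARF1 leaned the same way without passing, with 141 against 121 CPM for ARF1.2.4 (log2 fold change 0.22, edgeR adjusted p = 0.368) and 159 against 130 CPM for ARF1.3.4 (0.29, edgeR adjusted p = 0.202), the pair with the highest levels on the list. RAB1A (0.44), ARF6 (0.24) and CDC42 (0.21), which act in early secretion, membrane recycling and cell polarity, did not pass either, and RAB13 stood at -0.91 (edgeR adjusted p = 0.43). Chosen after its values were seen, KINH, the heavy chain of the microtubule motor kinesin, stood at 22.3 against 15.7 CPM (log2 fold change 0.50, edgeR adjusted p = 0.0418), with 20.4 CPM at the reference site. Its call was lost without any of 13 libraries, and sec61g, OST4, ARF4 and ARF1.4.4 lost theirs without 1 to 3 of the 16. Without WWTP individual 46 the edgeR adjusted p was 0.0563 for sec61g, 0.0547 for OST4, 0.0537 for ARF4 and 0.054 for ARF1.4.4. Without WWTP individual 38 it was 0.0925 for KINH.

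**Figure D3:**
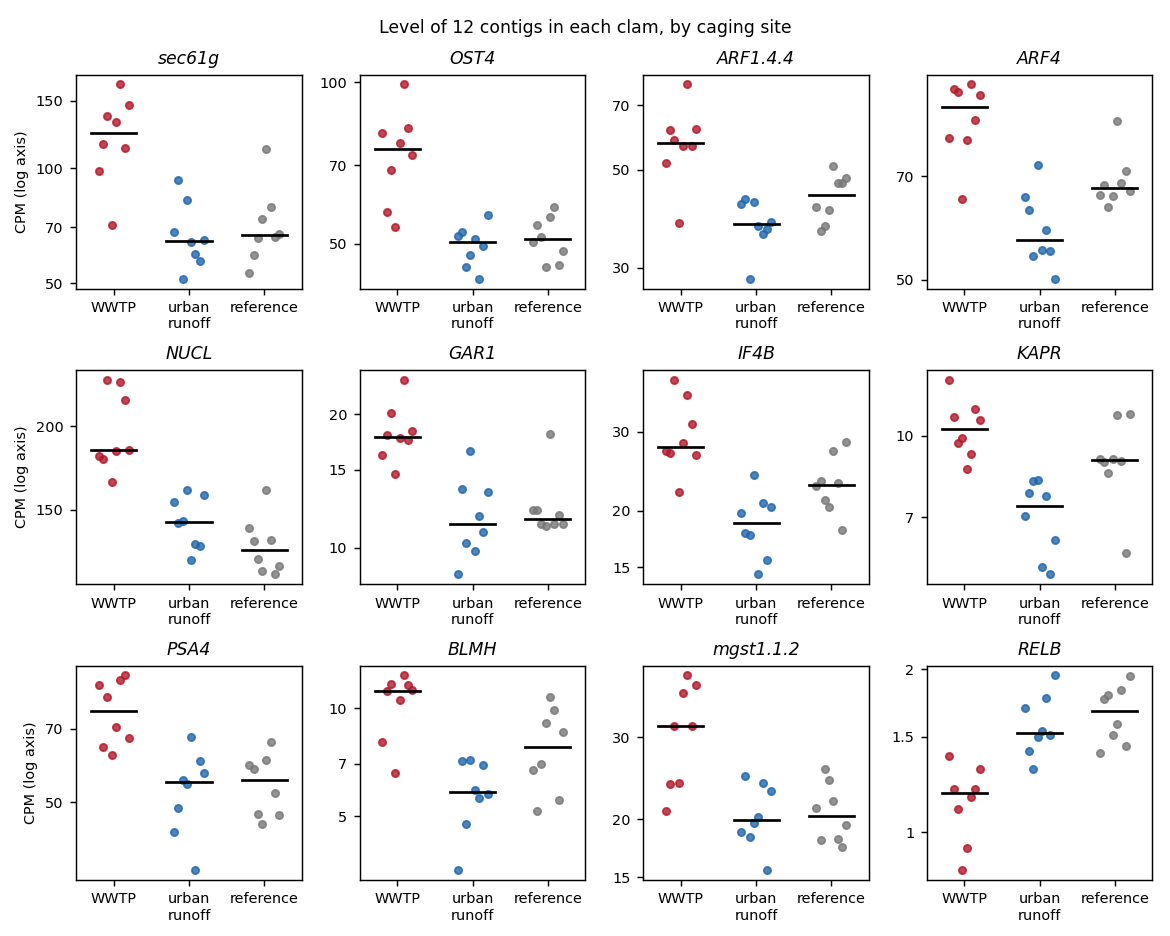
Level of 12 contigs in each of 24 clams, in CPM on a log axis, by caging site; each point is 1 clam and each bar the median of 8. The first 11 panels show contigs higher in WWTP than in urban runoff clams, such as sec61g with medians of 124 and 64.5 CPM, and the last shows RELB, with medians of 1.18 and 1.53 CPM.

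Genes of the nucleolus and of RNA processing formed the list with the most calls. Of 20 contigs 3 were higher and 0 lower, and 16 had a positive log2 fold change. The median was 0.30, beside 0.10 for all symbols and -0.01 for all contigs tested. NUCL, nucleolin, an abundant nucleolar protein of ribosomal RNA transcription and processing, had a lowest, median and highest level of 165.1, 184 and 235 CPM in WWTP clams and 126, 144 and 161 CPM in runoff clams. The ranges did not overlap. The log2 fold change was 0.46 (standard error 0.11, edgeR adjusted p = 0.0485), and the reference mean of 133 ± 13.3 CPM (SD, n = 8) was below both.

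GAR1, a protein of the particles that guide pseudouridylation of ribosomal RNA, ranged from 14.6 to 23.9 CPM (median 17.8) in WWTP and from 8.71 to 16.6 CPM (median 11.3) in runoff clams. A pair of WWTP clams lay within the runoff range, and the log2 fold change was 0.63 (standard error 0.13, edgeR adjusted p = 0.0231). DDX23, a helicase of the spliceosome, had 52.6 to 86.3 CPM (median 68.3) against 39.96 to 57.9 CPM (median 52.7), with a log2 fold change of 0.47 (SE 0.11; adjusted p by edgeR = 0.0473). Here 7 of 8 WWTP clams exceeded all runoff clams. NSUN2, a methyltransferase of transfer RNA that was chosen after its values were seen, stood at 15.6 against 11.2 CPM (0.48, edgeR adjusted p = 0.0386).

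With the 3 called members included, 12 of the 20 list members were higher at an unadjusted p under 0.05 and 0 lower. They include splicing factors of the SR family, such as srsf4 (45.1 against 32.5 CPM, log2 fold change 0.47, edgeR adjusted p = 0.0839) and SRSF2.2.2 (64.9 against 48.2 CPM, 0.43, edgeR adjusted p = 0.0892). sfrs6, the second of the list's 2 contigs with the highest levels beside NUCL, stood at 109 ± 9.53 against 89.4 ± 7.13 CPM (SD, n = 8 each; 0.29, edgeR adjusted p = 0.143). DESeq2 called 8 members of the list higher and limma-voom 5. Upper-quartile scaling called 1 and scaling by library totals 0. A fit without the libraries low in GUN, added after seeing the data, also called 0. The calls of NUCL, DDX23, NSUN2 and GAR1 were lost without 14, 13, 10 and 3 of the 16 libraries. The highest edgeR adjusted p was 0.121 for NUCL without WWTP individual 38, and without individual 46 it was 0.125 for DDX23, 0.0906 for NSUN2 and 0.0592 for GAR1.

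Ribosomal proteins and translation factors leaned higher in WWTP clams by a small amount. Of 42 contigs 1 was higher and 0 lower, 41 had a positive log2 fold change and the median was 0.34, which is close to the 0.32 of all contigs over 100 CPM. The called member was IF4B, a factor that helps unwind messenger RNA at the start of translation. It ranged from 22.1 to 39.2 CPM (median 27.7) in WWTP and from 14.5 to 24.1 CPM (median 18.8) in runoff clams, and 7 of 8 WWTP clams exceeded every runoff clam. The log2 difference was 0.66 (standard error 0.13, edgeR adjusted p = 0.0176), and it was 1 of 4 symbols that passed with any single library left out.

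The elongation factor EF1A and the ribosomal protein Rpl5, the list's contigs with the highest levels, did not pass. EF1A stood at 7933 ± 2057 against 6838 ± 1266 CPM (SD, n = 8 each; log2 fold change 0.21, edgeR adjusted p = 0.792) and Rpl5 at 1911 ± 492 against 1607 ± 227 CPM (0.25, edgeR adjusted p = 0.651). Ribosomal proteins with larger differences were RS6.1.2 (0.71), Rpl31.1.3 (0.67) and RL37A (0.65), none of which passed. The summed level of the list ran from 16970 to 32730 CPM in WWTP and from 15650 to 23430 CPM in runoff clams, the highest being WWTP individual 33, the clam with the highest muscle sum. Without that clam, an alternative added after seeing the data, the list's median was 0.25. Its part in the result was not tested.

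With the first principal component of all 24 libraries (58.8% of their variance) added as a term, 3027 contigs (5.26%) were called, 1829 higher and 1198 lower, and the 609 were all among them. Of the symbols 97 were then higher and 8 lower. The component was computed from the same counts, and the fit took it as known. Its calls may therefore be less firm than their p-values. Ribosomal proteins and translation factors had 12 higher members and 0 lower in that fit. Among them were RS26 (187 ± 41.5 against 139 ± 17.3 CPM, SD, n = 8 each; log2 fold change with the term 0.49, edgeR adjusted p = 0.0285), RS3 (417 ± 91.8 against 326 ± 42.9 CPM; 0.43, edgeR adjusted p = 0.0384) and RS25.1.2 (92.2 ± 27.2 against 62.7 ± 13.9 CPM; 0.64, edgeR adjusted p = 0.0412). RS26, RS3 and RS25.1.2 were chosen after their values were seen. With the term the RNA list had 7 higher members.

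KAPR, a regulatory subunit of the cyclic AMP-dependent protein kinase, ranged from 8.66 to 12.8 CPM (median 10.3) in WWTP and from 5.45 to 8.26 CPM (median 7.35) in runoff clams. No WWTP clam fell within the runoff range, and the log2 fold change was 0.56 (standard error 0.12, edgeR adjusted p = 0.0239), with a reference mean of 9.05 CPM between the other two. 14331.2.2, named for the 14-3-3 adaptors that bind phosphorylated proteins, had 34.8 to 52.2 CPM (median 48.2) against 28.2 to 37.0 CPM (median 32.2), a log2 fold change of 0.50 (SE 0.10; adjusted p by edgeR = 0.0205). It was the only call among 11 contigs of 14-3-3 and G protein subunits, whose median was 0.22. The related 14331.1.2 stood at 4.92 against 4.82 CPM (0.03, edgeR adjusted p = 0.974), 1433Z at 390 against 322 CPM (0.28, edgeR adjusted p = 0.348) and the G protein beta subunit GBB at 323 against 323 CPM (0.00).

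Both contigs named Cap1 were higher in WWTP clams. Cap1.2.2 ranged from 22.8 to 36.1 CPM (median 31.1) against 16.6 to 23.1 CPM (median 20.6), with 7 of 8 WWTP clams above all runoff clams, a log2 fold change of 0.59 (SE 0.10) and the lowest p of the symbols (edgeR adjusted p = 0.0119). Cap1.1.2 stood at 22.2 ± 4.40 against 14.7 ± 2.93 CPM (SD, n = 8 each; 0.59, edgeR adjusted p = 0.0425). As they share a name, reads may be split between them and they are not separate evidence. PP1B, a catalytic subunit of protein phosphatase 1 that was chosen after its values were seen, stood at 64.6 against 45.0 CPM (0.52, edgeR adjusted p = 0.0445). Without WWTP individual 47 the edgeR adjusted p of KAPR was 0.0516, and without individual 38 it was 0.0525 for 14331.2.2, 0.0993 for Cap1.1.2 and 0.104 for PP1B. Cap1.2.2 passed with any single library left out, at an edgeR adjusted p of at most 0.033.

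The called symbols included 4 peptidases or peptidase subunits, BLMH, PSA4, FACE1 and IMMP1L. BLMH, bleomycin hydrolase, a cytoplasmic cysteine peptidase, ranged from 6.58 to 12.4 CPM (median 11.2) in WWTP and from 3.53 to 7.19 CPM (median 5.85) in runoff clams. Only 1 WWTP clam was below the highest runoff clam, and the log2 fold change of 0.83 (SE 0.17; adjusted p by edgeR = 0.0217) was the second largest of the symbols named by rule. Its reference mean was 7.85 ± 2.05 CPM (SD, n = 8). Chosen after their values were seen were PSA4, an alpha subunit of the 20S proteasome (75.9 against 52.9 CPM; log2 fold change 0.52, edgeR adjusted p = 0.0488), and FACE1, a peptidase that trims prenylated proteins (56.9 against 40.9 CPM; 0.48, edgeR adjusted p = 0.0193). IMMP1L, also chosen after its values were seen, is a peptidase of the inner mitochondrial membrane (11.8 against 8.96 CPM; 0.39, edgeR adjusted p = 0.0217), and its ranges of 10.3 to 13.9 and 7.86 to 10.3 CPM did not overlap.

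Among 22 contigs of heat shock and folding 1 was higher and 0 lower, with a median of 0.17. This was ppia, named for cyclophilin A, a prolyl isomerase, at 2.62 ± 1.26 against 1.19 ± 0.33 CPM (SD, n = 8 each; log2 fold change 1.14, standard error 0.25, edgeR adjusted p = 0.0271), and it was chosen after its values were seen. WWTP individual 46 was highest at 5.12 CPM, and 7 of 8 WWTP clams exceeded the highest runoff value of 1.66 CPM. Some other immunophilins leaned the same way without passing, namely FKBP2 (124 against 90.3 CPM; 0.46, edgeR adjusted p = 0.0562), FKB1A (142 against 108 CPM; 0.40, edgeR adjusted p = 0.0808) and FKB1B (5.96 against 4.74 CPM; 0.33, edgeR adjusted p = 0.111). PPIA_bis, which shares the name of ppia, stood at 0.32 (edgeR adjusted p = 0.402), and at -0.13 within lane 4. The chaperone GRP78.2.2 of the endoplasmic reticulum stood at 309 ± 82.5 against 223 ± 89.2 CPM (SD, n = 8 each; 0.47, edgeR adjusted p = 0.568) while GRP78.1.2 stood at -0.75 (edgeR adjusted p = 0.330). HSP74 (-0.04) and the heat shock regulator HSF1 (0.01) did not pass. Without WWTP individual 46 the edgeR adjusted p was 0.0569 for BLMH, 0.137 for PSA4, 0.0592 for FACE1, 0.0631 for IMMP1L and 0.0732 for ppia.

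Of 28 contigs of xenobiotic metabolism, whose enzymes oxidise, conjugate or reduce foreign compounds, 1 was higher and 0 lower, with a median of 0.25. The called member was mgst1.1.2, a membrane-bound transferase that couples glutathione to lipophilic compounds. It ranged from 20.9 to 40.7 CPM (median 31.7) in WWTP and from 15.6 to 24.7 CPM (median 20.0) in runoff clams, so that 3 WWTP clams lay within the runoff range. The log2 fold change was 0.60 (standard error 0.14, edgeR adjusted p = 0.0379), and the reference mean was 20.8 CPM. Its counterpart mgst1.2.2 had means of 143.1 against 90.3 CPM (0.66, SE 0.63, edgeR adjusted p = 0.747), and MGST1 means of 14.9 against 17.0 CPM (-0.20, edgeR adjusted p = 0.763).

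Cytochrome P450 contigs, whose enzymes oxidise foreign compounds and steroids, did not pass. CYP6 stood at 328 ± 242 against 339 ± 150.1 CPM (SD, n = 8 each; log2 fold change -0.05) and CP2U1.1.2 at 172 ± 67.5 against 199 ± 82.4 CPM (-0.21), the list's pair with the highest levels, and CP3AO stood at 0.52 (edgeR adjusted p = 0.604). MAOB, a monoamine oxidase (0.55, edgeR adjusted p = 0.0846), and aldh7a1, an aldehyde dehydrogenase (46.1 against 37.3 CPM; 0.31, edgeR adjusted p = 0.0568), were nearer to the threshold. ADHX.1.2 and ADHX.2.2, class III alcohol dehydrogenases, stood at -0.58 and -0.49 without passing. The summed level of the list was 1334 to 1760 CPM in WWTP and 1228 to 1611 CPM in runoff clams.

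Enzymes of energy and one-carbon metabolism included further calls. KAD2, a mitochondrial adenylate kinase that balances adenine nucleotides, ranged from 48.7 to 125.5 CPM (median 96.3) in WWTP and from 41.2 to 74.4 CPM (median 55.8) in runoff clams, with 6 of 8 WWTP clams above all runoff clams. The log2 fold change was 0.69 (standard error 0.17, edgeR adjusted p = 0.0498). It was the only call among 18 contigs of central energy metabolism, whose median was 0.28. Both malate dehydrogenases leaned higher without passing, MDHC at 759 against 639 CPM (0.25, edgeR adjusted p = 0.727) and MDHM at 252 against 208 CPM (0.28, edgeR adjusted p = 0.288). So did ODPB of pyruvate dehydrogenase (0.42, edgeR adjusted p = 0.138). With the first component as a term 7 of the 18 were higher and 0 lower.

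The following symbols were chosen after their values were seen, apart from ES1. METK2, which makes S-adenosylmethionine, stood at 1.24 ± 0.29 against 0.80 ± 0.17 CPM (SD, n = 8 each; log2 fold change 0.63, edgeR adjusted p = 0.0467). PTER, named for a phosphotriesterase-related protein, stood at 7.49 against 5.45 CPM (0.46, edgeR adjusted p = 0.0473), and 5 of 8 WWTP clams lay within the runoff range. The reference mean of PTER was 6.92 CPM. ES1 ranged from 2.35 to 4.28 CPM (median 3.50) against 1.34 to 2.67 CPM (median 2.21; 0.65, SE 0.14, edgeR adjusted p = 0.0302). WSCD2 had the largest fold change of the 30 called symbols, at 0.20 to 3.33 CPM (median 1.396) against 0.04 to 0.42 CPM (median 0.12; log2 fold change 3.30 with standard error 0.59, edgeR adjusted p = 0.0132). The runoff levels of WSCD2 reach down to the 0.0337 to 0.0792 CPM that 0 counts allow in these libraries, so its fold change is uncertain. WWTP individuals 41 and 42 lay within the runoff range, and it passed with any single library left out. The calls of KAD2, METK2, PTER, ES1 and mgst1.1.2 were lost without 6 to 14 of the 16 libraries, with edgeR adjusted p of up to 0.114, 0.118, 0.118, 0.0744 and 0.0923.

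**Figure D4:**
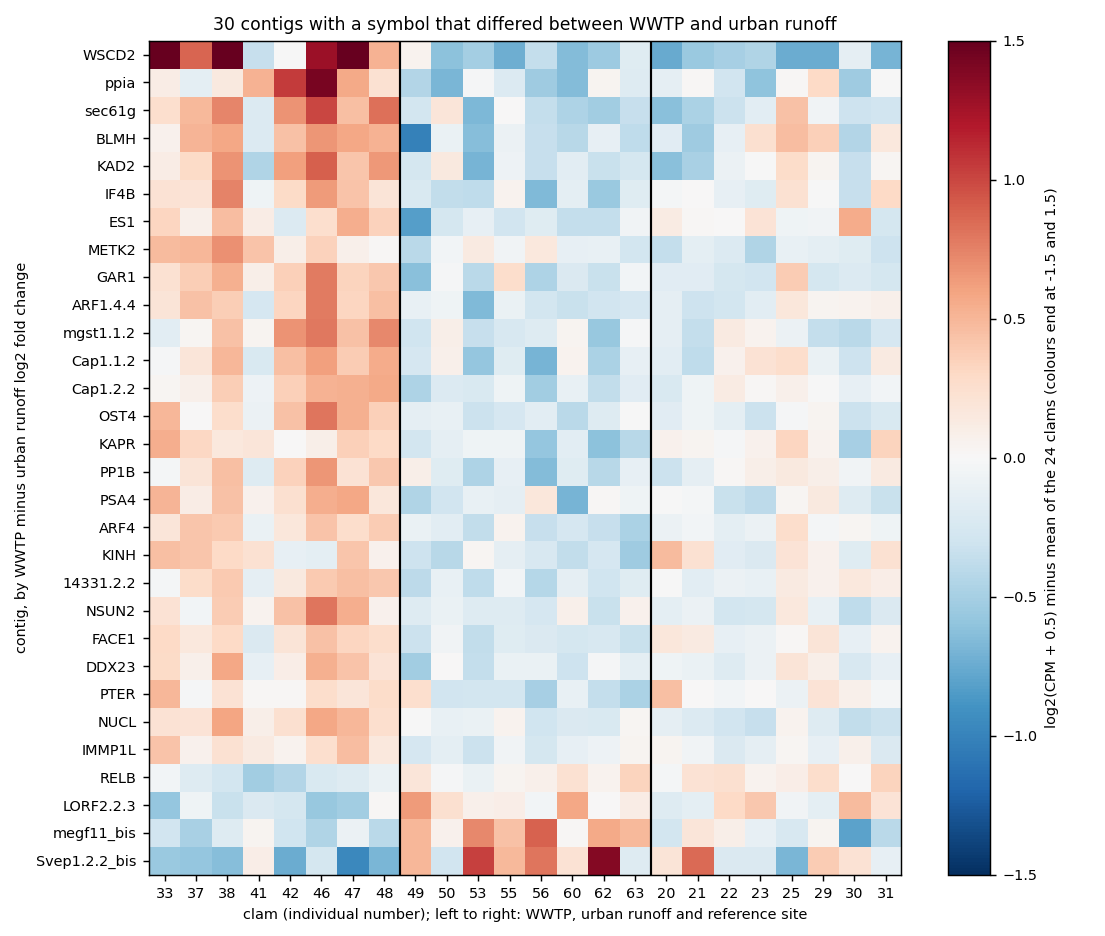
Levels of the 30 symbols called between WWTP and urban runoff in each of 24 clams, as log2(CPM + 0.5) minus the mean of the 24, with colours ending at -1.5 and 1.5. Symbols are ordered by log2 fold change, from 3.30 for WSCD2 to -1.69 for Svep1.2.2_bis, and columns by site; in WWTP individual 41, 7 of the 26 higher symbols exceed every runoff clam, against 21 to 25 in the other WWTP clams.

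Symbols lower in WWTP clams numbered 4. RELB, a transcription factor of the NF-kappa-B family that acts in immune cells of vertebrates, had a lowest, median and highest level of 0.85, 1.18 and 1.38 CPM in WWTP and 1.31, 1.53 and 1.95 CPM in runoff clams. The ranges overlapped slightly. The log2 difference was -0.47 (standard error 0.11, edgeR adjusted p = 0.0382), and the reference mean of 1.66 ± 0.20 CPM (SD, n = 8) was close to the runoff mean of 1.59 CPM. RELB was the only call among 110 contigs of immune recognition and effectors. Of these, 62 (56.4%) had a positive log2 fold change, beside 62.15% of all symbols.

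LORF2.2.3, named for the ORF2 protein of LINE-1 retrotransposons, ranged from 20.1 to 30.7 CPM (median 24.6) in WWTP and from 29.6 to 47.5 CPM (median 32.7) in runoff clams. The ranges met at their ends, and the log2 fold change was -0.55 (standard error 0.14, edgeR adjusted p = 0.0487). It was the only call among 9 contigs of mobile elements. The other LORF2 contigs were also below 0 without passing, at 12.9 against 16.6 CPM for LORF2.1.3 (-0.37, edgeR adjusted p = 0.544) and 8.10 against 9.44 CPM for LORF2.3.3 (-0.22, edgeR adjusted p = 0.651).

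The remaining 2 lower symbols were at low levels and, like RELB, were chosen after their values were seen. Svep1.2.2_bis, named for a large matrix protein of cell adhesion, stood at 0.24 to 1.06 CPM (median 0.45) against 0.70 to 3.28 CPM (median 1.54; log2 fold change -1.69 with standard error 0.35, edgeR adjusted p = 0.0232). Other contigs of that name did not pass and went in both directions. They ran from -0.45 for Svep1.1.2_bis (edgeR adjusted p = 0.621) to 0.74 for SVEP1.12.13 (edgeR adjusted p = 0.847). megf11_bis, named for a membrane protein with epidermal growth factor repeats, stood at 0.68 to 1.201 CPM (median 0.85) against 1.17 to 2.54 CPM (median 1.83; -1.04, SE 0.20, edgeR adjusted p = 0.0176). Its reference mean was 0.98 CPM, and MEGF11 stood at 0.16. The call of megf11_bis held with any single library left out. Without WWTP individual 38 the edgeR adjusted p was 0.0871 for RELB, 0.104 for LORF2.2.3 and 0.0593 for Svep1.2.2_bis.

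Several lists that bear on effluents had no call. Over all symbols 1.89% were called, so lists of this size can hold none without departing from that share. The same limit applies to the other lists below that had no call. In redox defence 0 of 17 contigs passed (edgeR, 3 at an unadjusted p under 0.05, 0 in DESeq2 and 1 in limma-voom), 16 were positive and the median was 0.15. Its members SODC.2.3, a copper-zinc superoxide dismutase, and SELW.5.5, a selenoprotein, stood at 141 ± 17.8 against 126 ± 12.01 CPM (SD, n = 8 each; 0.17) and 138 ± 14.2 against 124 ± 15.9 CPM (SD, n = 8 each; 0.15). In metal and iron handling 0 of 8 passed (edgeR, 2 at an unadjusted p under 0.05 in opposite directions, 0 in DESeq2 and limma-voom). The log2 fold changes of this list ran from -1.57 to 0.28, with a median of -0.14. MT, metallothionein, which binds zinc, copper and cadmium, stood at 294 ± 85.0 against 323 ± 72.5 CPM (SD, n = 8 each; log2 fold change -0.14, standard error 0.20, edgeR adjusted p = 0.862). FRIS, a soma ferritin that stores iron, stood at 6020 ± 2210 against 4957 ± 2018 CPM (SD, n = 8 each; 0.28, edgeR adjusted p = 0.811).

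The immune contigs with the highest levels did not pass. LYS3.4.4, a lysozyme, stood at 1298 ± 862 against 671 ± 576 CPM (SD, n = 8 each; log2 fold change 0.95, standard error 0.99, edgeR adjusted p = 0.778), and BDEF.1.2, a big defensin, at 219 ± 172 against 197 ± 195 CPM (SD, n = 8 each; 0.15, SE 1.02, edgeR adjusted p = 0.974). Of 67 interferon-type and antiviral contigs 0 passed (edgeR, 3 at an unadjusted p under 0.05, 0 in DESeq2 and limma-voom), and the RNA sensor DDX58.1.3 (0.04) and TRIM35 (0.08) had the highest levels. Of 46 apoptosis regulators 0 passed (edgeR, 6 at an unadjusted p under 0.05, 0 in DESeq2 and 1 in limma-voom), with Iap, an inhibitor of apoptosis, at 0.23.

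Digestive and lysosomal hydrolases had 0 calls among 22 contigs (edgeR, 1 at an unadjusted p under 0.05, 0 in DESeq2 and limma-voom) and a median of 0.12. GUN ranged from 7.72 to 1077 CPM in WWTP and from 2.74 to 685.7 CPM in runoff clams (log2 fold change 0.69 with standard error 0.97, edgeR adjusted p = 0.857), and Amy.1.2, an amylase, from 6.26 to 831.6 and from 3.33 to 647.1 CPM (0.57, SE 0.96, edgeR adjusted p = 0.884). The ranges overlapped almost fully. As 3 runoff clams and 1 WWTP clam were low in these enzymes, their number differs between the sites. A fit without the 6 libraries low in GUN, 2 of them from the reference site, was added after seeing the data and called 140 contigs, 80 higher and 60 lower. All 30 symbols kept their sign in it and 3 their call, namely BLMH (edgeR adjusted p = 0.0487), Cap1.2.2 (0.0487) and FACE1 (0.0487). The symbols were called with libraries that this fit shares, so their kept sign is no separate support.

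Metabolic lists had no further call. In lipid and sterol metabolism 0 of 24 passed (edgeR, 4 at an unadjusted p under 0.05, 1 in DESeq2 and 0 in limma-voom), with the desaturase scd at 101 ± 18.2 against 140.5 ± 73.5 CPM (SD, n = 8 each; log2 fold change -0.48, edgeR adjusted p = 0.343) and PAHX, which breaks down branched fatty acids, at 0.36. In nuclear genes of the respiratory chain 0 of 11 passed (edgeR, 1 at an unadjusted p under 0.05, 1 in DESeq2 and 0 in limma-voom), with a median of 0.23, or 0.10 without WWTP individual 33, and the ATP synthase subunit ATPA at 939 ± 167 against 779 ± 97.98 CPM (SD, n = 8 each; 0.27, edgeR adjusted p = 0.514). Transcripts of the mitochondrial genome, such as CYTB.1.2 (0.09) and ND4 (0.07), had a median of 0.13, or -0.03 without that clam, and did not pass, 0 of 6 (edgeR, 1 at an unadjusted p under 0.05, 1 each in DESeq2 and limma-voom). In steroid, thyroid and retinoid signalling 0 of 7 passed (edgeR, 1 at an unadjusted p under 0.05, 0 in DESeq2 and limma-voom), with the deiodinase IOD1 at 29.2 ± 15.8 against 17.3 ± 12.2 CPM (SD, n = 8 each; 0.75, SE 0.55, edgeR adjusted p = 0.631) and RDH7.2.2, a retinol dehydrogenase, at -0.16. In solute carriers and pumps 0 of 16 passed (edgeR, 1 at an unadjusted p under 0.05, 0 in DESeq2 and limma-voom), with the phosphate carrier NPT2B at 0.58 and the cation channel TRPA1.2.2 at 0.35.

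In cell division 0 of 13 passed (0 at an unadjusted p under 0.05 in edgeR, 0 in DESeq2 and limma-voom). The members ran from -0.95 for CDC20, which activates the anaphase-promoting complex, to 0.41 for CENPS of the centromere, both named after their values were seen, 11 were positive, and the median of 0.11 was -0.04 without WWTP individual 47, -0.02 without runoff individual 60 and -0.00 without WWTP individual 33. The pair with the highest levels did not pass, with cyclin B (CCNB) at 32.5 ± 16.2 against 32.0 ± 14.1 CPM (SD, n = 8 each; log2 fold change 0.02) and UBE2C, a ubiquitin-conjugating enzyme of mitosis, at 0.01. In DNA damage response 0 of 9 passed (edgeR, 1 at an unadjusted p under 0.05, 0 in DESeq2 and limma-voom), 7 were positive and the median was 0.10, with the nucleotide excision repair genes ERCC1 at 0.10 and XPC at 0.07.

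Markers of other tissues had no call either. Of 18 muscle contigs 0 passed (0 at an unadjusted p under 0.05 in edgeR, 0 in DESeq2 and limma-voom), 16 were positive and the median of 0.52 was the highest of the 25 lists. That value rests on WWTP individual 33. Without it, an alternative added after seeing the data, the muscle median was -0.18. MYS.1.2, a myosin heavy chain, stood at 986 ± 1592 against 507 ± 657 CPM (SD, n = 8 each; log2 fold change 0.96, SE 0.89) and TPM.1.5, tropomyosin, at 424 ± 604 against 269 ± 226 CPM (SD, n = 8 each; 0.66, SE 0.65). Of 7 germline and yolk contigs 0 passed (edgeR, 1 at an unadjusted p under 0.05, 0 in DESeq2 and limma-voom), with a median of 0.17, which was -0.44 without WWTP individual 47. The yolk precursors Vg.1.2 and Vg.2.2 stood at 0.41 and 0.32, and Vg.1.2 at -0.13 without WWTP individual 33. Of 31 cilia and tubulin contigs 0 passed (edgeR, 1 at an unadjusted p under 0.05, 1 each in DESeq2 and limma-voom), with TBA3.1.3 at 0.18 and TBB.9.11 at -0.01. No marker of these lists was at 0 in all 8 clams of either site.

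**Figure D5:**
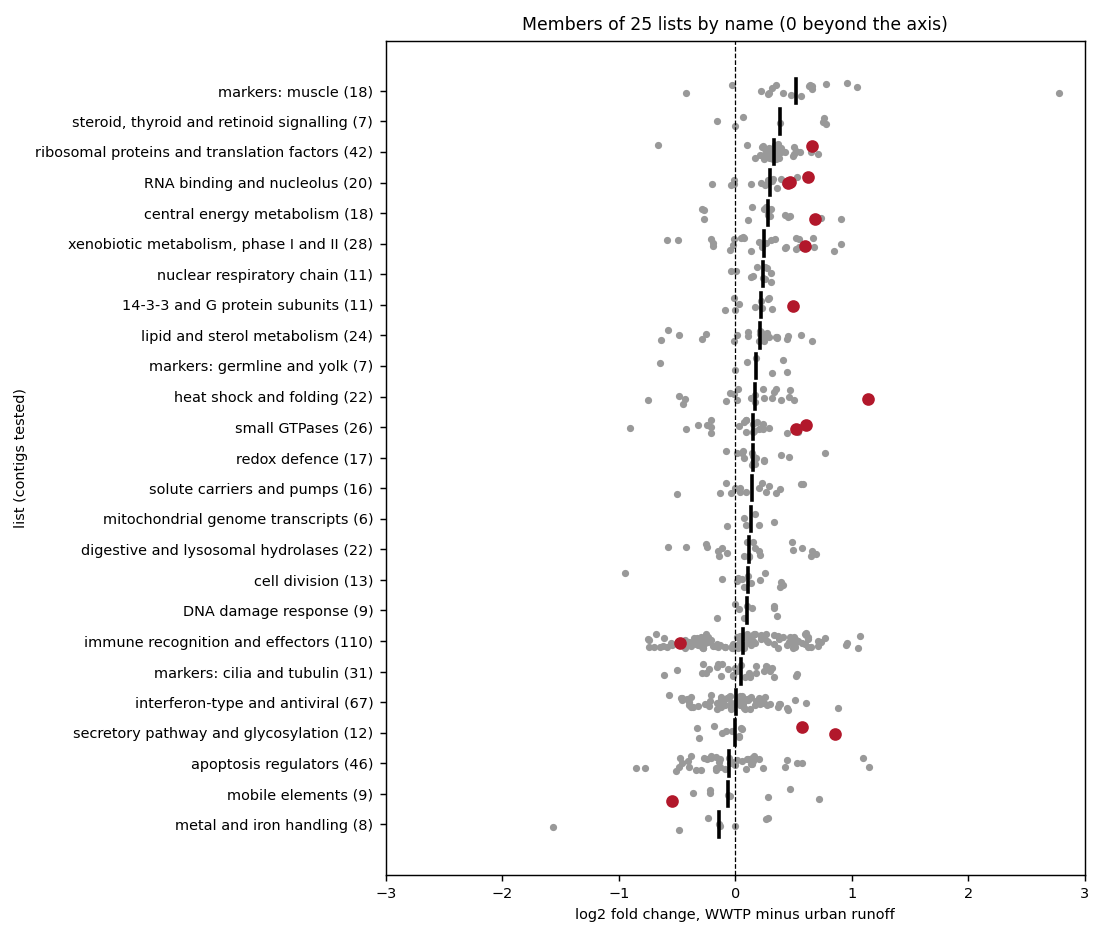
Log2 fold change of WWTP minus urban runoff for every tested member of 25 lists drawn up by name, with the number tested in brackets; red points passed an adjusted p of 0.05, black bars are list medians and the dashed line is the median of all contigs at -0.01. List medians run from -0.14 for metal and iron handling to 0.52 for muscle markers, and no list has more than 3 members called.

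Called contigs without a symbol were named by rule, as those with the largest fold changes among contigs whose ranges did not overlap. Phum_PHUM345810, a locus tag, had a lowest, median and highest level of 63.8, 106.5 and 163.5 CPM in WWTP clams and 35.3, 49.2 and 58.6 CPM in runoff clams (log2 fold change 1.15 with standard error 0.18, edgeR adjusted p = 0.00576). LOC105340223.1.2 ranged from 35.8 to 62.9 CPM (median 51.2) against 14.2 to 29.0 CPM (median 23.0; 1.14, SE 0.20, edgeR adjusted p = 0.0112). Both lay near the runoff level at the reference site, with means of 49.5 and 27.3 CPM. Lower in WWTP clams were contig_00638 (7.51 to 12.1 against 14.5 to 25.8 CPM; log2 fold change -0.90, standard error 0.12, edgeR adjusted p = 0.00185) and contig_03619 (13.8 to 20.9 against 24.1 to 77.8 CPM; -0.95, SE 0.22, edgeR adjusted p = 0.032). Reference means were 13.3 CPM for contig_00638 and 26.5 CPM for contig_03619.

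No gene name or role is attached to these 4 contigs. They were named because their ranges do not overlap, so the separation itself is not a finding. The runoff mean of contig_03619, 32.6 ± 18.6 CPM (SD, n = 8), was raised by individual 49 at 77.8 CPM, as its runoff median was 25.0 CPM. Its call was lost without 6 libraries, with an edgeR adjusted p of up to 0.0808 without WWTP individual 38. The calls of the other 3 held with any single library left out.

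The WWTP clams did not all share the pattern to the same degree. Since the 26 higher symbols were chosen by this contrast, the following is a description of which clams carried them, without a test. The median over these symbols of log2(CPM + 0.5) minus the runoff mean was 0.84 in WWTP individual 46, 0.66 in individual 47, 0.64 in individual 38 and 0.61 in individual 48. It was 0.51, 0.47 and 0.45 in individuals 42, 33 and 37, and 0.19 in individual 41. In individual 41, the WWTP clam low in GUN, 7 of the 26 symbols exceeded the highest runoff clam, against 21 to 25 in the other WWTP clams. Reference clams had medians of -0.00 to 0.37, with individual 25 highest, and runoff clams of -0.13 to 0.13.

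The number of calls rested on which clams were included. It fell from 609 to 112 contigs and 6 symbols without WWTP individual 38, and to 115 contigs and 6 symbols without individual 46. Without WWTP individuals 47 and 42 it was 219 and 330, and without runoff individuals 53, 60, 62, 63 and 56 it was 223, 295, 313, 343 and 365. Without WWTP individual 41 it rose to 1010 contigs and 43 symbols. It lay between 425 and 742 without any 1 of the other 6. With every single library left out, 4 symbols passed, namely Cap1.2.2, IF4B, WSCD2 and megf11_bis.

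Within a lane, 4 clams of each site remained. No contig passed in lane 3 (edgeR, 4411 at an unadjusted p under 0.05, 125 of them symbols) or in lane 4 (edgeR, 4362 and 104), where no other tool was run. All 30 symbols kept their sign in both lanes. As they were called with these same libraries, that is no separate support. sec61g stood at 0.83 and 0.85, NUCL at 0.46 and 0.42, KAPR at 0.55 and 0.54 and RELB at -0.47 and -0.50 on the log2 scale in lanes 3 and 4. Larger gaps between lanes were seen for ppia (1.72 and 0.58), GAR1 (0.77 and 0.46) and LORF2.2.3 (-0.76 and -0.34). With lane as a term 546 contigs and 22 of the 30 symbols passed (edgeR).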

How the data were processed

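RNA was isolated with a Promega SV total RNA kit and libraries were made with TruSeq RNA v2, per the labels' protocols. BWA 0.7.12 and SAMtools 1.1 are named, per the submitters' processing notes. The deposited table holds raw read counts per contig, 1 column per library. How contigs were assembled, counted and named, and whether strand was used: not given in the sources used here. Site came from the labels and lane from the column descriptions, and lanes 3 and 4 hold 4 libraries of each site.

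The filter filterByExpr by site (minimum count 10) kept 57593 of 58291 contigs, and the 698 removed held 0.00718% of counts. All 24 libraries were fitted together without covariates with edgeR 4.0.16 (TMM, robust quasi-likelihood, R 4.3.3), and the contrast WWTP minus runoff was adjusted by Benjamini-Hochberg over all contigs tested. The standard error is the log2 fold change divided by the root of F. The biological coefficient of variation was 45.8%. A count of 0 allows up to 3 counts at 95% confidence, which covers counting error only. Alternatives used DESeq2 1.42.0 and limma 3.58.1 (voom with sample weights). Component positions (log2 CPM, prior count 2) and totals were compared by two-sided exact permutation over 12870 groupings. The fit was tested on simulated data. The highest correlation between 2 of the libraries was 0.9746, and none was a copy of another.

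Symbols were named by a rule: among contigs past the threshold of 0.05 whose mean reached 2 CPM and whose medians moved with the fold change, the 12 largest per direction, then up to 4 called members and the 2 highest-level members of each list. For contigs without a symbol it took 2 per direction with at least 5 CPM and no overlap. It gave 17 of the 30 called symbols. The other 13 are said to be chosen after their values were seen. The comparison, its contigs and the 25 lists were chosen with earlier results of these data known. Lists were drawn up from symbols by name, and names caught by mistake were removed, and others added, by name alone. One contig that the rule names is not reported here.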

Additional observations from a re-analysis of the deposited data

Results flagged for a closer look

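In 76 groups of 8 values, taken from the 34 named contigs, 3 component positions and total counts, a single clam stood far from the rest of its site in 5. Chance alone flags about 1 group in 20, and 5 of 76 is near that share. The groups hold the same clams and are not independent. ES1 was low in runoff individual 49, at 1.34 CPM, and contig_03619 was high in the same clam, at 77.8 CPM. That clam also stood apart on the third principal component, at -120.7. ARF1.4.4 was low in runoff individual 53, at 28.3 CPM. FACE1 was low in WWTP individual 41, at 41.6 CPM. Individuals 53 and 41 are among the clams low in GUN. Without runoff individual 49 the number of contigs called was 425, and 11 of the 30 symbols lost their call. No contrast between groups was compared across tissues or times, and all columns of the table were used.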

How the results depend on the processing

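The count of called contigs, 609, and of called symbols, 30, varied with the tool and the libraries. DESeq2 called 1968 contigs and 70 symbols, limma-voom 1633 and 55, and the fit with the first component as a term 3027 and 105. Fewer passed when the 16 libraries were fitted alone (115 and 4), without the 6 libraries low in GUN, an alternative added after seeing the data (140 and 3), and at an adjusted p under 0.01 (23 and 0). None passed within lane 3, within lane 4 or by glmTreat (0 and 0 each). Scaling by library totals gave 541 contigs and 8 symbols. Leaving out each library in turn gave 112 to 1010 contigs and 6 to 43 symbols. Upper-quartile and RLE scaling, no filter, a stricter filter and lane as a term gave 423 to 686 contigs and 21 to 30 symbols. The share of calls higher in WWTP clams was 72.7%, against 59.8% with upper-quartile scaling, 6.84% with library totals, 60.4% with the component term and 57.1% without the libraries low in GUN. Fewer WWTP or runoff clams were compared in the lane fits and in those with libraries left out. The fit of 16 libraries compared the same clams, but without the reference clams in the filter, scaling and spread. For it and the other alternatives the cause was not tested. On the third component the difference between sites was 70.9 within lane 3 and 41.97 within lane 4, past the threshold in neither after adjustment (0.171 and 0.0857). Of 984 alternative fits of the 34 named contigs, 617 kept the call, 367 lost it and 0 changed sign. The contigs were chosen by this contrast in the same libraries, so the kept signs are no separate support. Of 625 alternative list medians 2 moved by more than the spread between clams. These were steroid, thyroid and retinoid signalling in lane 4 (1.07) and the secretory list under library totals (-0.20), which is the shift of all contigs there. No paired analysis was possible because a number shared by clams of different sites links neither animals nor days. Depth limits the fold change of WSCD2, whose runoff levels reach the limit of 0 counts.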
